A study of Homo sapiens with 4 samples.

Results

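Macrophages and fibroblasts that meet fatty debris or lipoproteins share a small set of genes for taking lipid up, carrying it, storing it and sending it out again. 10 of them were followed here in the mouse host cells around human breast lesions: Apoe, Trem2, Gpnmb, Lpl, Fabp4, Fabp5, Plin2, Cd36, Abca1 and Lipa. They were chosen by name, and all 10 were found among the 32285 mouse genes of both deposited matrices. Their counts were read in barcodes with at least 90% of gene counts on mouse genes.

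The lesions grew from MCF10DCIS.com, a human cell line that forms ductal carcinoma in situ, a breast lesion still held inside the ducts, in mice. The cells were seeded on decellularised extracellular matrix (dECM), the protein scaffold left when cells are washed out of tissue, from mouse mammary glands. Matrix of young donors (2 to 3 months) made up the young pool, and matrix of aged donors (18 months and older) the aged pool. After 12 days in culture the scaffolds were implanted in fat pads of Rag1-/- mice. These recipients have no mature lymphocytes of the T and B lineages. Lesions were taken 4 weeks later together with the stroma next to them. Every host cell therefore came from a Rag1-/- recipient, and the host's own age is not given in the sources used here. The series describes both kinds of scaffold as placed on the right or left side of 1 mouse. The labels name 1 gene expression library for each pool, made after dead cell removal. The series text speaks of 3 samples sent for sequencing, and how these map to the 2 pools is not given in the sources used here. Cells are not tied to animals, and each pool was treated as 1 sample. The pools are also the labelled batches, so matrix age, animals and batch cannot be told apart. No test across samples was possible, and no p-value is given.

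The 2 libraries were of similar depth. After filters the young pool held 11946 mouse cells with 65136469 mouse gene UMIs (unique molecular identifiers, 1 per captured RNA molecule), and the aged pool 12924 cells with 71000331 UMIs. The median cell had 2285.5 and 2261 UMIs. 190 barcodes occurred in both pools, 148 of them among the kept mouse cells. Cells were clustered with the lipid genes left out and named from marker genes. Macrophage-like cells numbered 456 in the young and 499 in the aged pool, monocyte-like cells 614 and 733, fibroblast-like cells 645 and 1019, endothelial-like cells 121 and 114, and neutrophil-like cells 8411 and 8857. Adipoq and Lep, which define adipocytes, had no UMI in macrophage-like, fibroblast-like or endothelial-like cells of either pool. Others of the 8 adipocyte markers listed were seen there at low counts. Lipe had 24 young and 32 aged UMIs in macrophage-like, 35 and 59 in fibroblast-like and 20 and 26 in endothelial-like cells. Retn had at most 13 UMIs in any of these classes and pools, and Plin1, Cidec, Cfd and Car3 at most 5 each.

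Levels are CPM, the gene's UMIs per 1000000 mouse gene UMIs of the same cells, given young pool first and aged pool second. Intervals are exact 95% intervals of the counts. They hold counting error alone and say nothing of how animals vary. A gene counted as measured in a class if the pool with the higher level had 20 CPM or more and both pools together 100 UMIs. It counted as apart if the pools differed by 1.5-fold or more. The assay counts transcript 3′ ends, so levels were compared for 1 gene across cells and not between genes.

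As background, lipoprotein lipase (Lpl) splits the fat carried in blood lipoproteins, and the freed fatty acids enter cells with the help of Cd36 and are ferried inside by fatty acid binding proteins such as Fabp4 and Fabp5. Surplus fatty acid is stored in lipid droplets coated by Plin2, while cholesterol esters brought in with debris are split in the lysosome by Lipa. Cholesterol leaves through the transporter Abca1 onto apolipoproteins such as Apoe. Macrophages that carry much lipid are known in atherosclerosis, fat tissue and tumours for the receptor Trem2, which binds lipids, and the lysosome-linked membrane protein Gpnmb.

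The 10 genes did not follow a single cell type. Apoe, Trem2, Gpnmb and Fabp5 were macrophage genes in these grafts, Lpl was mainly a fibroblast gene and Fabp4 mainly an endothelial gene. Plin2, Abca1 and Lipa were spread over several classes, and Cd36 was sparse in all of them. Of all mouse UMIs of each gene over both pools, macrophage-like cells held 76.7% for Apoe, 69.4% for Trem2, 73.8% for Gpnmb and 71.9% for Fabp5. Fibroblast-like cells held 85.9% of those of Lpl, and endothelial-like cells 72.8% of those of Fabp4. The neutrophil-like cells, by far the most numerous, held 42.7% of the Plin2 UMIs and 39.0% of those of Abca1.

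**Figure D1:**
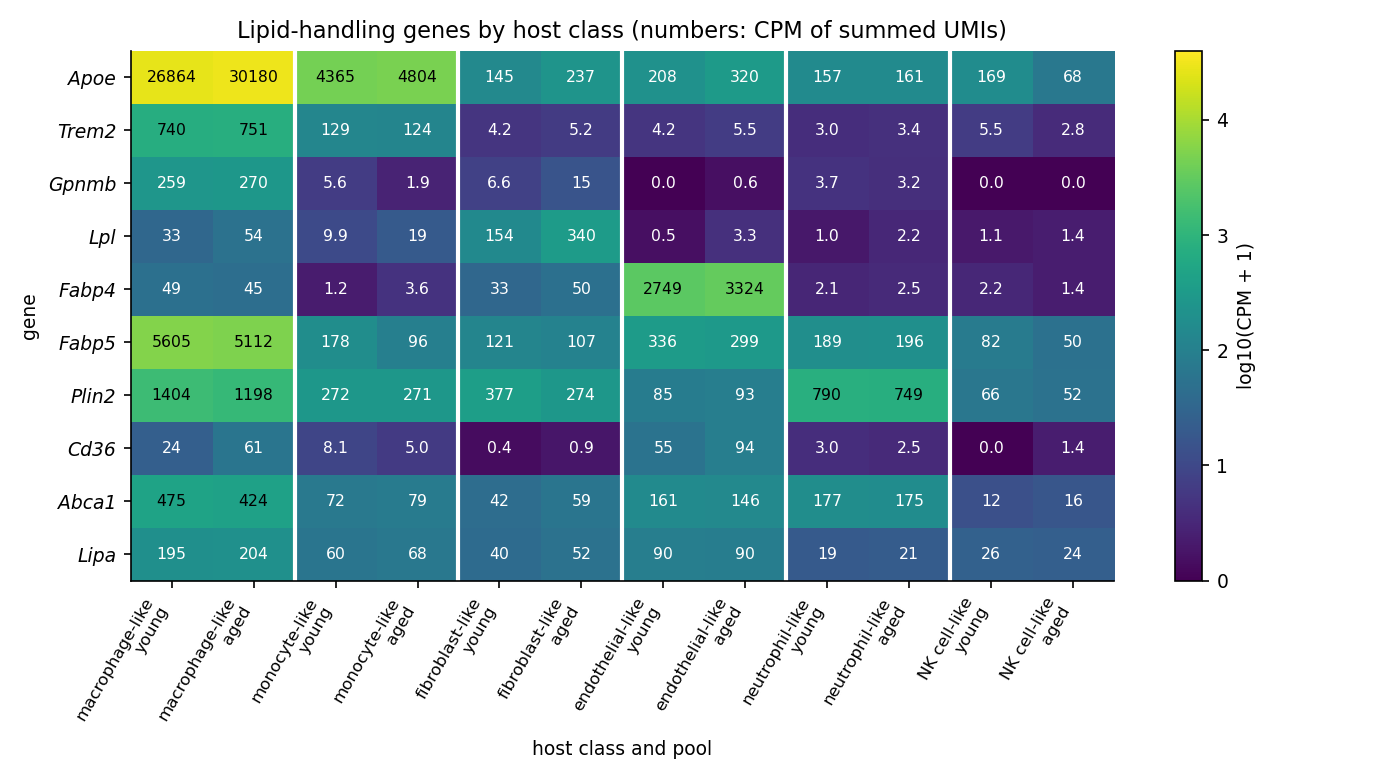
Level of each of the 10 genes in 6 host classes of the young-matrix and aged-matrix pools. Rows are genes, columns are classes by pool, each cell prints the CPM of the summed UMIs and its colour is log10(CPM + 1); Apoe reached 26864 and 30179.9 CPM in macrophage-like cells and Fabp4 2749 and 3324 CPM in endothelial-like cells.

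Free RNA set the floor for reading low levels. Human barcodes make no mouse RNA, and those kept here still carried 3318 and 1896 Apoe UMIs per 1000 barcodes, and 785 and 899 in barcodes of at least 98% human counts. Apoe in neutrophil-like cells, at 349 and 335 UMIs per 1000 cells, and in NK cell-like cells, at 1077 and 401, was at or below the first of these figures, so it was read as background. Endothelial-like cells, at 3281 and 5105, lay near it in the young pool, and most of their Apoe sat in 1 cell of each pool. Trem2 had 69.0 and 52.9 UMIs per 1000 human barcodes, against 57 and 62 UMIs in all 8411 and 8857 neutrophil-like cells. Plin2 and Abca1 in neutrophil-like cells were well above the floor: Plin2 had 1760 and 1562 UMIs per 1000 of these cells against 368 and 329 per 1000 human barcodes, and Abca1 395 and 365 against 92.1 and 92.5.

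Trem2 (ENSMUSG00000023992) was at 740 and 751 CPM in macrophage-like cells and at 129 and 124 in monocyte-like cells. It was at 5.51 CPM or less in fibroblast-like, endothelial-like, neutrophil-like and NK cell-like cells. After thinning every cell to 2000 UMIs, 66.3% and 60.4% of macrophage-like cells had a Trem2 UMI, against 0.513% and 0.576% of neutrophil-like cells; 23 and 29 macrophage-like and 4509 and 5035 neutrophil-like cells were too shallow to thin. Without thinning the shares were 86.8% and 86.4% against 0.642% and 0.700%, at median depths of 9515 and 8646 UMIs in macrophage-like and 1921 and 1879 in neutrophil-like cells. Between pools the macrophage level differed by a ratio of 1.01 (0.969 to 1.06).

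Gpnmb (ENSMUSG00000029816) had a similar class total in both pools, 259 and 270.3 CPM, but a very different spread over cells. Of the macrophage-like cells, 5 of 456 in the young and 6 of 499 in the aged pool held 50% of its UMIs. For Trem2 it took 69 and 70 cells, and for Apoe 87 and 105. The 10 cells with the most Gpnmb carried 33 to 224 UMIs each in the young and 54 to 165 in the aged pool, and all but 1 of these 20 cells lay in the sub-cluster led by Mmp12, Mmp13 and Pf4. They were deep cells, with medians of 26690.5 and 29105 UMIs against 9515 and 8646 for the class. Their median doublet scores were 0.133 and 0.146. All kept cells score under the removal limit of 0.25, so these medians cannot show whether the deep cells are single.

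Myeloid cells of the monocyte and macrophage clusters, together with 1 unnamed cluster led by Acp5 and Ctsk, were split further into 15 sub-clusters, numbered M1 to M15. The genes were highest in different macrophage-like sub-clusters. M5, led by the matrix proteases Mmp12 and Mmp13 and the chemokine Pf4 (117 and 97 cells), had the highest Gpnmb, Fabp5, Plin2, Abca1 and Lipa of all 15. M8, led by the Fc receptor-like gene Fcrls and the stress cytokine Gdf15 (79 and 93 cells), had the highest Apoe. M2, led by the chemokine Ccl12 and the receptor Slamf9 (121 and 189 cells), had the next highest Apoe in both pools. Trem2 was at 471 and 492 CPM in M2, beside 431 and 407 in M4.

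In M5 Gpnmb was at 744 and 821 CPM, against 0 and 5.52 CPM in M2 and 21.2 and 43.1 in M8. Without the 10 cells highest in Gpnmb in each pool, the other macrophage-like cells of M5 were at 225 and 223 CPM, still above both. Fabp5 was at 12401 and 14654 CPM in M5, at 1637 and 1253 in M8 and at 276 and 274 in M2. Plin2 was at 2429 and 2643 CPM in M5 and at 353 and 396 in M2. M5 stood above M8 and M2 for each of these genes in both pools, and no count interval of M5 overlapped theirs. The share of all genes for which this holds was not counted. For Gpnmb the 10 top cells held 65.9% and 75.8% of the class UMIs, a spread over cells that the count intervals leave out. Plin2 in M8, at 399.9 and 477 CPM, overlapped M2 in the young pool. Cells of M5 were also the deeper ones, with a median of 14927.5 UMIs against 9640.5 in M8 and 6502 in M2; the part of depth in these levels was not tested.

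Apoe (ENSMUSG00000002985), the lipoprotein component through which macrophages export cholesterol, ran differently. Its level was 39930.4 and 47147 CPM in M8, 31073 and 30343 in M2 and 25426 and 27289.9 in M5. It was at 12095 and 12634 CPM in M4, a sub-cluster led by Inhba, Cxcl3, Nos2 and Arg1, and at 1387 and 1792 in the Hp- and Chil3-led monocyte-like cells of M1. In M12, led by the dendritic cell genes Cd7, Cd209a and Flt3, Apoe was at 84.6 and 40.6 CPM and Trem2 had no UMI in 34 and 41 cells. Trem2 was at 991 and 1115 CPM in M5 and at 961 and 896 in M8, a far smaller gap than that of Gpnmb between them.

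**Figure D2:**
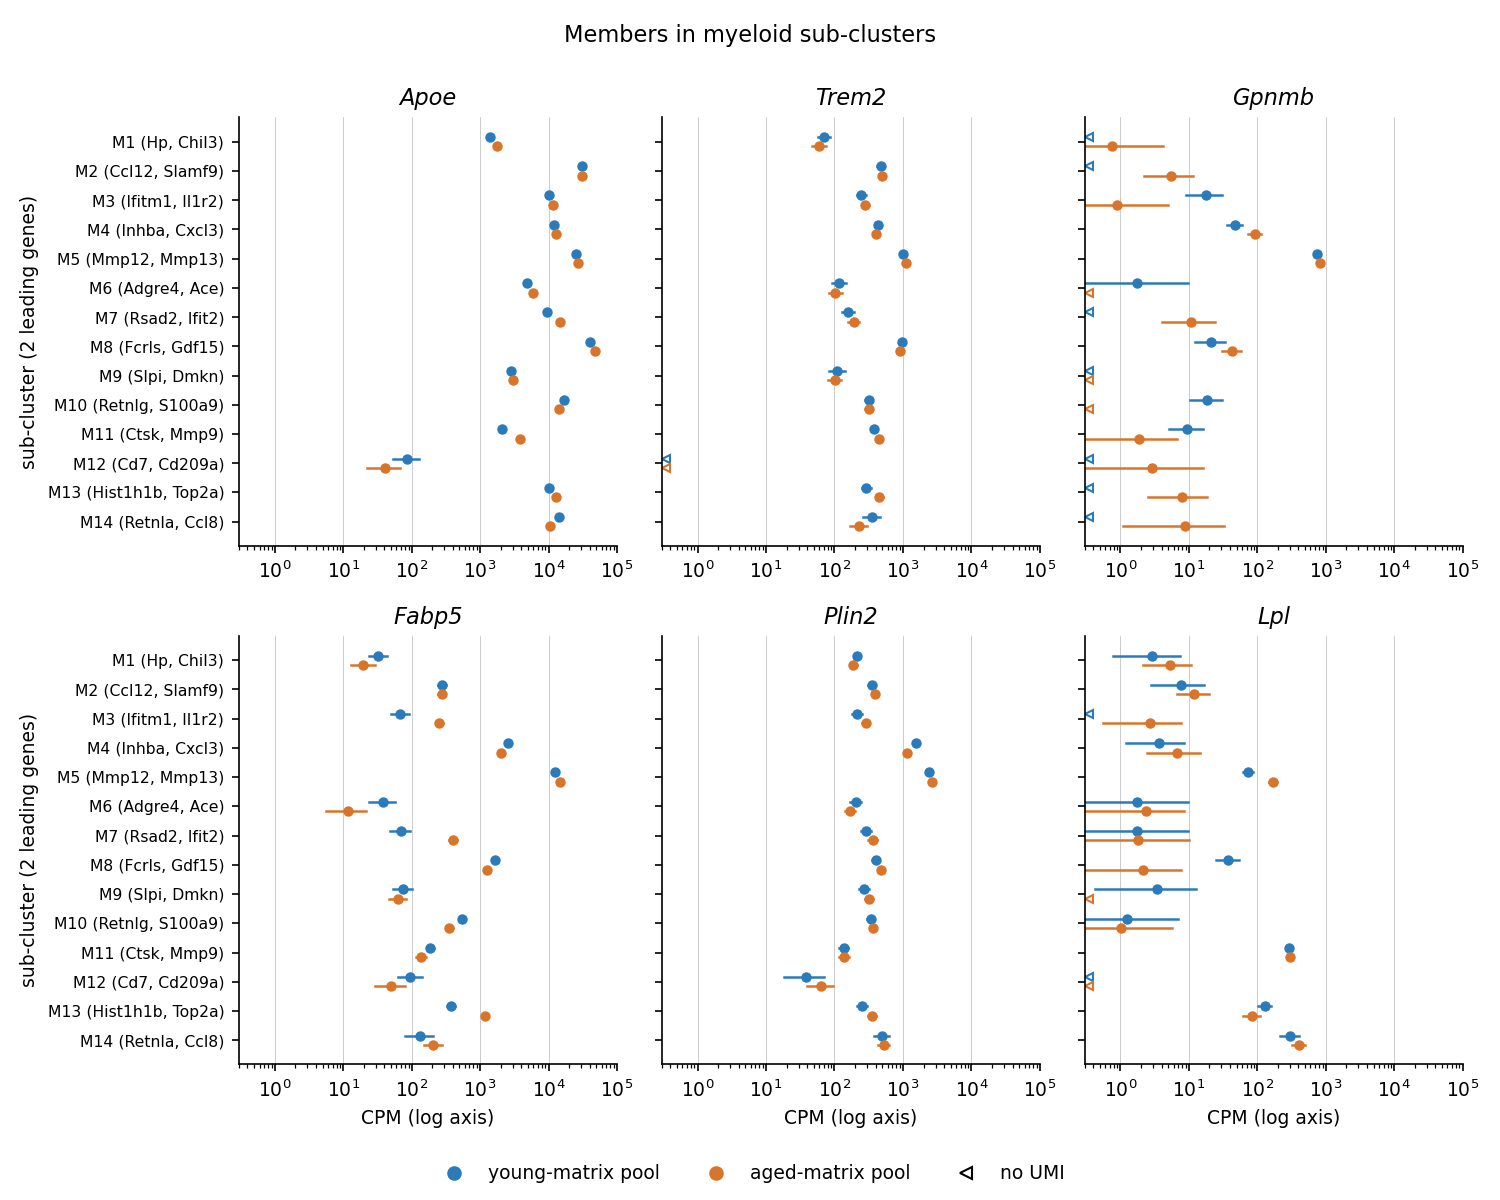
Apoe, Trem2, Gpnmb, Fabp5, Plin2 and Lpl in myeloid sub-clusters of at least 40 cells. Each panel plots CPM on a log axis by sub-cluster, with points for the pools, bars for 95% counting intervals and open triangles where no UMI was seen; Gpnmb reaches 744 and 821 CPM in M5 and stays under 100 CPM in the other sub-clusters, while Apoe is highest in M8.

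M4, with the arginase gene Arg1 and the nitric oxide synthase gene Nos2 among its leaders, stood next to M5 for several of the genes. Its Fabp5 was at 2522 and 2034 CPM, its Plin2 at 1531 and 1163 and its Abca1 at 445 and 377. The Gpnmb of M4 read 47.5 and 91.3 CPM, but 1 aged cell held 82.9% of the aged UMIs. M4 made up 11.5% (9.73 to 13.5) of the split myeloid cells in the young pool and 6.71% (5.41 to 8.21) in the aged pool, and M5 10.2% (8.52 to 12.1) and 7.48% (6.11 to 9.05). Plin2 and Fabp5 of the macrophage-like class were 0.853 (0.824 to 0.883) and 0.912 (0.897 to 0.927) times the young level in the aged pool, whereas within M5 both were higher in the aged pool, at ratios of 1.09 (1.04 to 1.13) and 1.182 (1.160 to 1.203). The class values and the values within M5 thus pointed in opposite directions for these genes.

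Abca1 (ENSMUSG00000015243), the cholesterol exporter, was at 475 and 424 CPM in macrophage-like cells and at 701 and 754 in M5. Lipa (ENSMUSG00000024781), the lysosomal acid lipase, was at 195 and 204 CPM in the class, at 348 and 385 in M5 and at 115 and 178 in M8. In all 7 myeloid sub-clusters where Lipa was measured its level was higher in the aged pool, by 1.5-fold or more only in M8, at a ratio of 1.55 (1.19 to 2.02). The sub-clusters share 1 library a pool and are not repeats, and the share over all genes was not counted.

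Lpl, Cd36 and Fabp4, which take part in fatty acid uptake, were carried by few macrophages. Lpl (ENSMUSG00000015568) was at 32.8 and 54.2 CPM in the class, from 167 and 277 UMIs, and 5 cells held 50% of them in each pool. Cd36 (ENSMUSG00000002944) was at 23.6 and 60.6 CPM, from 120 and 310 UMIs, with 50% in 4 and 3 cells. Fabp4 (ENSMUSG00000062515) was at 49.3 and 44.8 CPM, with 50% in 2 and 3 cells. Of the 10 top cells for each gene and pool, at least 8 lay in M5.

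The top cells of these genes overlapped in part. The 10 cells highest in Gpnmb and the 10 highest in Cd36 shared 3 cells in the young and 6 in the aged pool. Gpnmb shared 2 and 4 of its 10 with Lpl, and 2 and 4 with Fabp4, while Lpl and Cd36 shared 0 and 4. Cells were ranked by UMIs, which favours deep cells, and such overlap was not particular to these genes. Plin2 and Abca1 shared 7 and 4 of their top cells, and Trem2 and Gpnmb 2 and 6. The 10 cells highest in Gpnmb had Cd36 at 175 and 531 CPM, against 33.5 and 97.7 in the remaining macrophage-like cells of M5. Lpl in them was at 144 and 296 CPM against 52.4 and 121. Spp1, the secreted glycoprotein osteopontin, was at 19143 and 34660 CPM in these cells against 12508 and 9346 in the rest of M5. Apoe was not higher in them, at 25959 and 20244 CPM against 25829 and 30120.3. These cells were picked by their Gpnmb and all of them are deep, so the values describe them only. Adipoq had no UMI in any of the 20, nor in any other macrophage-like cell. The fibroblast marker Col1a1 was at 11.7 and 300 CPM in them, against 47.0 and 27.7 in the rest of M5. It was seen in 3 of the 10 young and 5 of the 10 aged cells. The macrophage marker C1qa was at 2395 and 1235 CPM, against 2799 and 3998. The part of RNA from other cells in these values was not tested.

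Between pools, 2 of the 10 genes measured in macrophage-like cells were apart, Lpl and Cd36, both higher in the aged pool; of all 5352 genes measured there, 1.83% were apart in either direction and 0.729% were higher. Cd36 was higher at a ratio of 2.57 (2.08 to 3.20) and Lpl at 1.65 (1.36 to 2.01). The median log2 ratio was 0.04 over the 10 genes and 0.02 over all genes. Without the 5 top cells of each pool, Cd36 was at 8.68 and 20.8 CPM, a ratio of 2.40, and Lpl at 16.3 and 27.0, a ratio of 1.66, from very few cells. The share of macrophage-like cells with a Cd36 UMI was 5.04% and 5.21%, and for Lpl 8.99% and 8.22%, so the level differed and the share of positive cells was near equal; after thinning the shares were 2.31% and 2.98%, and 3.00% and 3.40%. NK cell-like cells, which should lack both, had a Cd36 UMI in 0 of 123 thinned young cells, which allows up to 2.44%, and in 0.459% of the aged ones. With clusters cut more finely (Leiden resolution 2) the Mmp12- and Arg1-led cells left the macrophage-like class and both genes turned. The log2 ratio became -2.40 for Cd36 and -1.74 for Lpl. Neither gene met the minimum for a measured gene there, so neither counted as apart.

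Neutrophil markers differed between the pools in this class. The 10 neutrophil markers summed to 5264 CPM in young and 3697 CPM in aged macrophage-like cells, with none at 0, and the 10 macrophage markers to 11607 and 13465. Their part in the pool differences was not tested.

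Beyond the macrophage-like class, the unnamed sub-cluster M11, led by Ctsk, Mmp9 and Acp5, the proteases and phosphatase of bone-resorbing cells, paired Lpl with Trem2 and lacked Gpnmb. Its 50 and 39 cells had Lpl at 289 and 303 CPM and Trem2 at 372 and 449, whereas Gpnmb was at 9.53 and 1.86. Apoe in M11 was 1.82-fold (1.73 to 1.91) higher in the aged pool, at 2093 and 3802 CPM, with 29.8% of the aged UMIs in 1 cell. M14, led by Retnla, Ccl8 and Cd163, had Lpl at 301 and 402 CPM, but 1 cell held 72.1% and 72.2% of it.

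Monocyte-like cells had 1 gene apart of 6 measured, Fabp5 (ENSMUSG00000027533), lower in the aged pool at a ratio of 0.540 (0.484 to 0.601); 1.18% of the 5170 genes measured were apart and 0.677% lower. Fabp5 was at 178 and 95.9 CPM there, with 32.8% and 20.4% in the top cell of each pool, and at 119.7 and 76.5 without those cells. Their Apoe, at 4365 and 4804 CPM, and Trem2 differed by less than 1.5-fold.

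Fibroblast-like cells were the main source of Lpl. Its level was 154 CPM in the young and 339.7 CPM in the aged pool, a ratio of 2.20 (2.11 to 2.29), and the UMIs came from many cells, with 50% in 31 and 59 cells. After thinning, 21.8% (18.7 to 25.2) of young and 30.4% (27.6 to 33.3) of aged fibroblast-like cells had an Lpl UMI, against 0.813% and 0.917% of NK cell-like cells; 4 and 5 fibroblast-like and 20 and 29 NK cell-like cells were too shallow to thin. Without thinning the shares were 42.2% and 56.6% against 0.699% and 0.810%, at median depths of 23592 and 21000 UMIs in fibroblast-like and 4560 and 4318 in NK cell-like cells.

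Of 7 genes measured in fibroblast-like cells, 3 were apart, Lpl, Apoe and Fabp4, all higher in the aged pool; 4.23% of the 5882 genes measured were apart, 3.13% higher and 1.11% lower. The median log2 ratio was 0.49 over the 7 genes and -0.05 over all genes. Apoe was at 145 and 237 CPM, a ratio of 1.63 (1.56 to 1.71), and Fabp4 at 33.0 and 49.8, a ratio of 1.51 (1.37 to 1.66) whose interval reaches below the limit. The Apoe level came from 2946 UMIs in 645 young and 6255 UMIs in 1019 aged cells. Free RNA, counted above for Apoe in human barcodes, may hold a part of it, and that part was not tested. Without doublet removal the log2 ratio was 0.17 for Apoe and 0.58 for Fabp4, both short of the limit, and 1.11 for Lpl. Fabp4 passed the limit in 8 of 14 alternatives. Abca1, at 42.2 and 59.3 CPM, and Lipa, at 40.1 and 52.5, were higher by ratios of 1.41 (1.29 to 1.53) and 1.31. Plin2 (ENSMUSG00000028494), the droplet coat protein, was at 377 and 274 CPM, 0.726 (0.703 to 0.749) times the young level, and Fabp5 at 121 and 107. Trem2, Gpnmb and Cd36 did not reach the minimum level.

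Fibroblast-like cells came from main clusters that split the genes between them. Cluster 12, led by the matrix genes Dpt and Tnxb (241 and 477 cells), had Lpl at 569 and 878 CPM, Abca1 at 114 and 122 and Lipa at 73.9 and 78.1. Cluster 11, led by the BMP antagonist Grem1 and the matrix protein Tnc (404 and 542 cells), had Lpl at 41.1 and 71.7 CPM, Abca1 at 22.6 and 27.8 and Lipa at 30.9 and 39.7. The droplet and carrier genes ran the other way, with Plin2 at 457 and 361 CPM in cluster 11 and 86.7 and 98.4 in cluster 12, and Fabp5 at 144 and 143 against 38.1 and 34.6. In both pools these levels had count intervals that did not overlap between the clusters. The share of all genes for which this holds was not counted, so it does not set these genes apart.

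In cluster 12, 4 of 8 measured genes were apart, all higher in the aged pool, where 2.32% of 5953 genes were apart and 1.16% higher: Apoe at 190.5 and 425 CPM, Gpnmb at 22.5 and 38.0, Lpl, and Fabp4 at 30.3 and 82.2. Their ratios were 2.23 (2.07 to 2.41), 1.69 (1.35 to 2.14), 1.54 (1.47 to 1.61) and 2.71 (2.25 to 3.29). Apoe there came from 830 UMIs in 241 young and 3731 UMIs in 477 aged cells, and the part of free RNA in it was not tested. In cluster 11, 1 of 7 was apart, Lpl at a ratio of 1.75 (1.59 to 1.92), against 3.04% of 5731 genes apart and 2.29% higher.

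The stromal cells of clusters 11, 12 and 16 were split into 14 sub-clusters, S1 to S14. S4, led by Scg3, Cpxm1 and Col28a1, was the lipase-rich one. Every one of its 41 young and 136 aged cells had an Lpl UMI, and its 177 cells held 47.8% of all mouse Lpl UMIs. Lpl was at 2267 and 2415 CPM in S4, against 383 and 354 in S5 and 7.55 and 23.9 in S1. The next highest level after S4 was that of S5 in the young pool and, at 411 CPM, that of the neutrophil-gene-led S7 in the aged pool. S4 also had the highest Gpnmb among the stromal sub-clusters, at 78.7 and 89.8 CPM, with a Gpnmb UMI in 22 and 74 of its cells. Its Apoe was at 715 and 1223 CPM, its Fabp4 at 112 and 269 and its Abca1 at 133 and 123. Cd36, the fatty acid uptake receptor, was at 11.2 and 1.81 CPM in S4, from 7 and 4 UMIs.

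**Figure D3:**
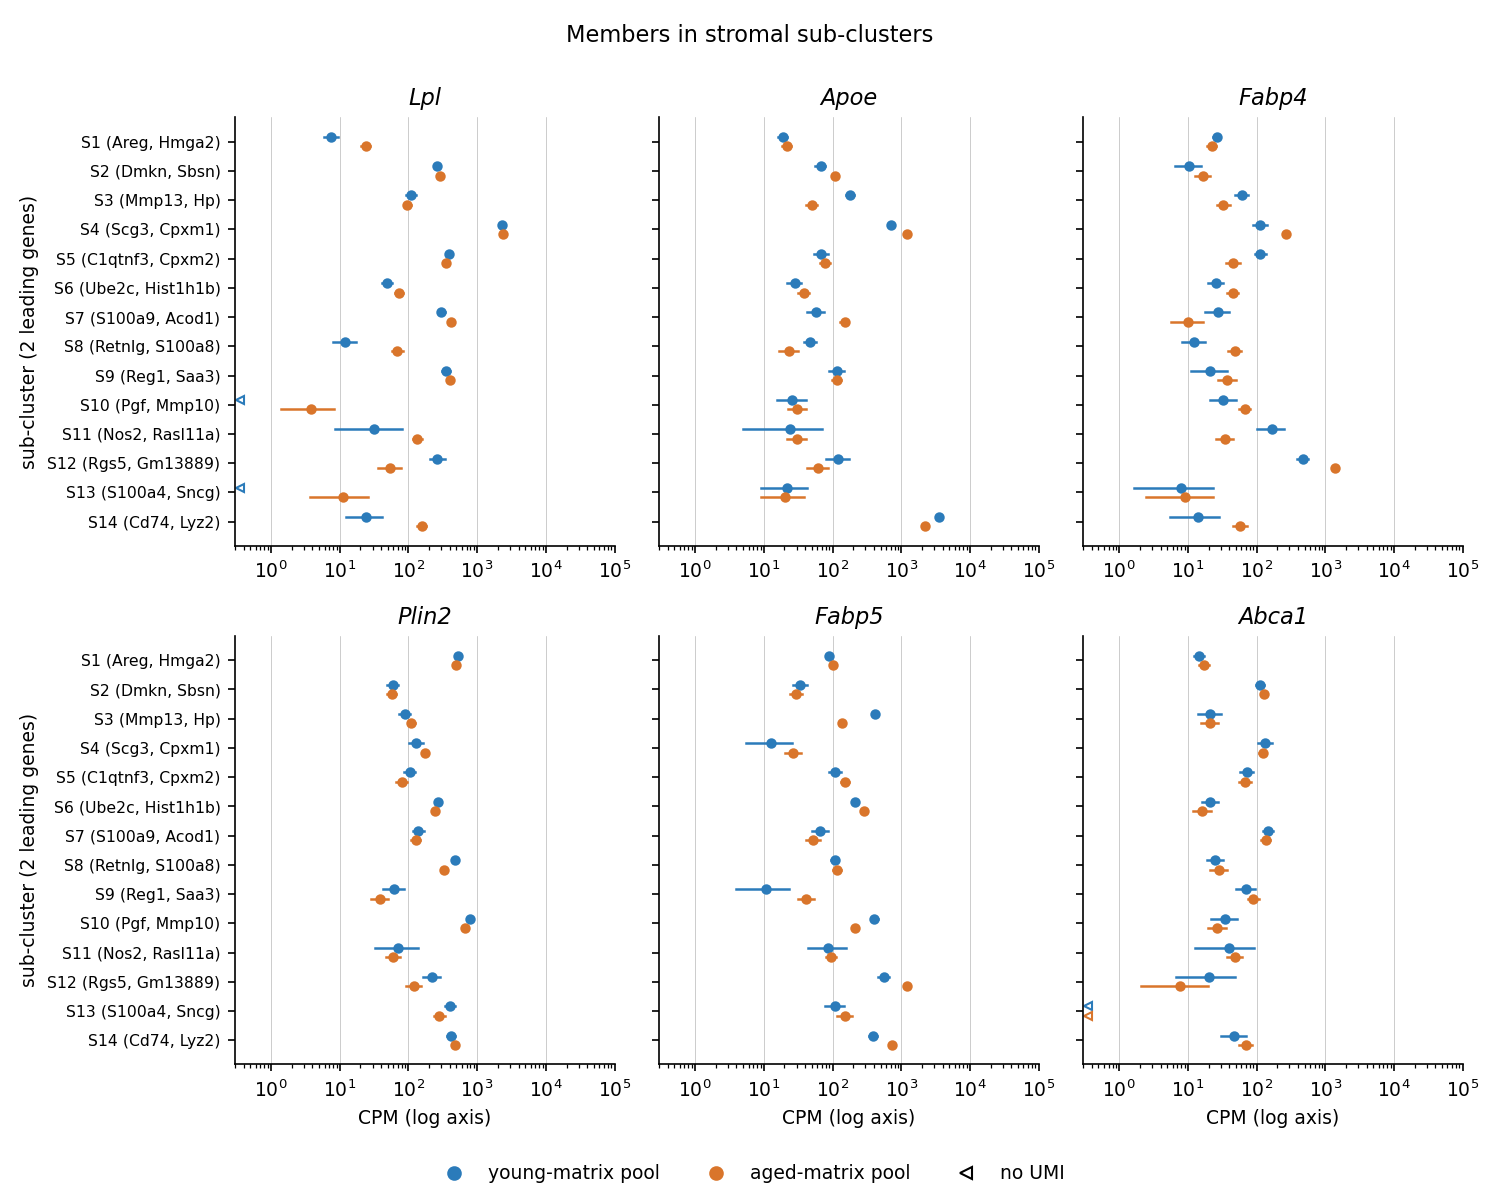
Lpl, Apoe, Fabp4, Plin2, Fabp5 and Abca1 in the 14 stromal sub-clusters. Each panel plots CPM on a log axis by sub-cluster, with points for the pools, bars for 95% counting intervals and open triangles where no UMI was seen; Lpl stands at 2267 and 2415 CPM in S4, and Plin2 is highest in S10, at 794 and 662 CPM.

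S4 made up 5.74% (4.15 to 7.71) of the stromal cells in the young pool and 12.1% (10.2 to 14.1) in the aged pool, while S1, led by Areg and Hmga2, made up 25.2% (22.1 to 28.6) and 13.03% (11.1 to 15.1). Within S4 the Lpl level differed little, at a ratio of 1.066 (1.005 to 1.131). When both pools were given the same mix of sub-clusters, the fibroblast-like Lpl read 225 and 262 CPM, a ratio of 1.16 in place of 2.20. Fabp4 then had a ratio of 1.08, Abca1 of 1.06, Lipa of 1.05 and Plin2 of 0.905. For S4 the pools differed more in its share than in the Lpl level of its cells. In other sub-clusters the level differed too. Lpl was higher in the aged pool by 1.5-fold or more in 5 of the 11 stromal sub-clusters where it was measured. The part of the mix in the class difference was not tested beyond this recalculation. The shares of S4 and S1 come from 1 library a pool and were not compared by a test.

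Apoe in fibroblast-like cells rested on few cells of the young pool. There 3 cells held 50% of its UMIs and 1 cell 34.5%, whereas in the aged pool 50% lay in 25 cells. Without the 5 top cells of each pool it was at 61.2 and 189 CPM, a ratio of 3.09. At the same mix of sub-clusters its ratio was 0.858, below 1. S14, led by the immune genes Cd74 and Lyz2 (10 and 32 cells), was the stromal sub-cluster highest in Apoe, at 3598 and 2218 CPM. Without S14 and the neutrophil-gene-led S7 and S8, fibroblast-like Apoe was at 70.9 and 169 CPM, a ratio of 2.39, and at 1.31 at the same mix.

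C1qa, a complement gene of macrophages, was counted beside Apoe. There were 7.15 and 6.74 Apoe UMIs per C1qa UMI in macrophage-like cells and 7.35 and 30.1 in fibroblast-like cells. Other classes had higher ratios than macrophage-like cells too, at 26.1 and 44.9 in monocyte-like and 13.7 and 10.98 in endothelial-like cells. NK cell-like cells, whose Apoe was read as background, had 17.1 and 19.8, from 9 and 5 C1qa UMIs. The young fibroblast-like ratio is a sum set by few cells, since 7.91% of young fibroblast-like cells had a C1qa UMI. Young S14 had 306 C1qa UMIs in 10 cells and young S3 122 in 66, with ratios of 5.93 and 1.96. Ratios were 11.6 in young S1, 20.6 in S2 and 14.2 in S5, from 16, 7 and 5 C1qa UMIs. They and the aged fibroblast-like ratio lay within the range of monocyte-like, NK cell-like and endothelial-like cells, so they do not set these cells apart. In fibroblast-like cells without a C1qa UMI, Apoe was at 65.0 and 209.9 CPM. S4 had 445 and 2698 Apoe UMIs beside 2 and 7 of C1qa, a ratio far above that of macrophages in both pools. The 10 macrophage markers summed to 239 and 251 CPM in fibroblast-like cells, with none at 0. The part of macrophage RNA in the class difference was not tested beyond these values.

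Plin2 was highest in other stromal sub-clusters than Lpl. S10, led by Pgf and Mmp10, had Plin2 at 794 and 662 CPM, and S1 at 518 and 489.5. Lpl in S10 had no UMI in 26 young cells and 3.84 CPM in the aged pool. Plin2 was lower in the aged pool in 9 of the 12 stromal sub-clusters where it was measured and Lpl higher in 9 of 11, by 1.5-fold or more in 1 and 5 of them. The share over all genes was not counted for sub-clusters. They come from 1 library a pool and are not repeats. In S12, the pericyte-like cells led by Rgs5, which wrap small vessels, Fabp4 was at 469 and 1381 CPM, a ratio of 2.94 (2.41 to 3.62), from 17 and 36 cells.

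Endothelial-like cells were marked by Fabp4, a known gene of capillary endothelium, at 2749 and 3324 CPM, a ratio of 1.21 (1.17 to 1.26). A Fabp4 UMI was seen in 87.5% and 78.1% of them after thinning, against 0.813% and 0.459% of NK cell-like cells, and in 95.04% and 91.2% against 1.40% and 0.810% without thinning. Gpihbp1, which anchors lipoprotein lipase on the capillary wall, was at 1531 and 1259 CPM in these cells, although Lpl itself was at 0.523 and 3.30 CPM, from 1 and 6 UMIs. Lpl and its anchor were thus seen in different cells, fibroblast-like and endothelial-like.

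Of 7 genes measured in endothelial-like cells, 2 were apart, Apoe and Cd36, both higher in the aged pool; 4.34% of the 5207 genes measured were apart and 2.52% higher. Few cells carried the Apoe difference, and neither gene stayed apart without the 5 top cells of each pool. Apoe was at 208 and 320 CPM, a ratio of 1.54 (1.36 to 1.76), with 80.6% and 75.6% of its UMIs in 1 cell of each pool, and it was at 40.8 and 79.0, a ratio of 1.94, without that cell and at 35.9 and 38.7 without the 5 top cells. Cd36 was at 54.9 and 93.6 CPM, a ratio of 1.70 (1.33 to 2.20), with 12.4% and 26.5% of its UMIs in the top cell. The ratio was 1.42 without the top cell of each pool and 1.34 without 5. The fibroblast markers summed to 133 and 1217 CPM in endothelial-like cells, and their part in these differences was not tested.

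**Figure D4:**
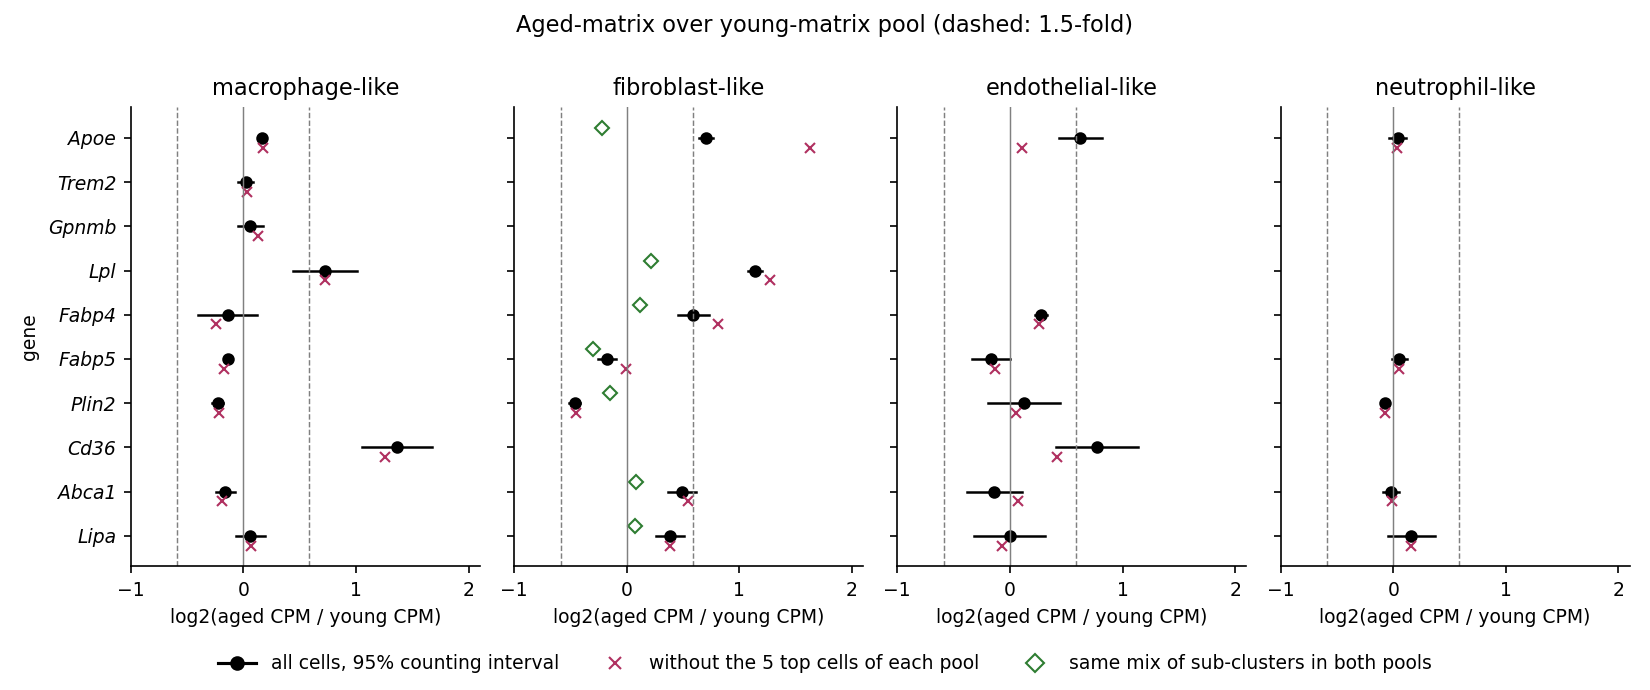
Aged over young log2 ratio of each measured gene in 4 classes, with vertical dashed lines at 1.5-fold. Circles with bars are all cells with 95% counting intervals, crosses leave out the 5 top cells of each pool, and diamonds give both pools the same mix of stromal sub-clusters; fibroblast-like Lpl moves from a ratio of 2.20 to 1.16 at the same mix.

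Neutrophil-like cells had Plin2, Abca1 and Fabp5 but little Trem2, Gpnmb, Lpl, Fabp4 or Cd36. Plin2 was at 790.0 and 749 CPM, above fibroblast-like cells in both pools, and Abca1 at 177 and 175. Fabp5 was at 189 and 196 CPM, also above fibroblast-like cells, with 421 and 408 UMIs per 1000 cells against 262 and 178 per 1000 human barcodes. Trem2, Gpnmb, Lpl, Fabp4 and Cd36 were at 3.68 CPM or less. None of the 5 genes measured was apart between pools, where 0.638% of 3291 genes were. The pools' scale differed most in this class, with a shift of 0.11 on the log2 scale under TMM factors.

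Among the neutrophil clusters Plin2 covered a wide range. It was at 1365 and 1355 CPM in cluster 0, led by Ccdc126, Ciart and the checkpoint ligand gene Cd274, at 981 and 980 in cluster 4 and at 309 and 324 in cluster 2, led by the chemokine receptor gene Cxcr2. The unnamed cluster 3, led by the granule gene Ngp, had 403 and 395 CPM. The pools gave close values in every cluster, with ratios from 0.930 to 1.06. The count intervals of clusters 0, 4 and 2 lay apart from each other and from all others in the young pool, while those of clusters 1, 8 and 5 overlapped in part. For how many of all genes such intervals lie apart was not counted, so it does not set Plin2 apart. Cluster 0 was also highest in Fabp5, at 405 and 530 CPM, against 90.4 and 64.6 in cluster 5, led by Il23a and Tnf. Abca1 was flatter, from 118 and 128 CPM in cluster 3 to 239 and 201 in cluster 8 and 214 and 255 in cluster 6.

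**Figure D5:**
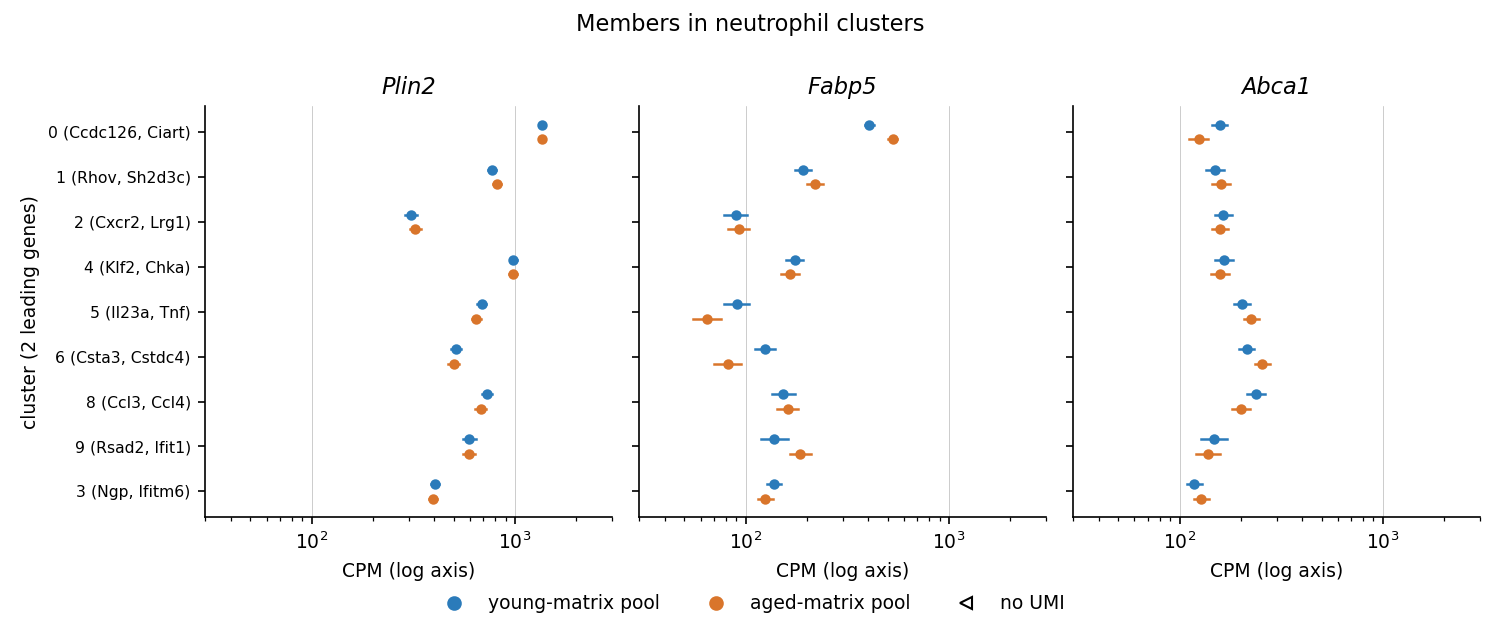
Plin2, Fabp5 and Abca1 in the 8 neutrophil-like clusters and in the Ngp-led cluster 3. Each panel plots CPM on a log axis by cluster, with points for the pools and bars for 95% counting intervals; Plin2 spans 309 to 1365 CPM in the young pool and the pools lie close together within each cluster.

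Other genes of the pathways, 99 in 9 lists by role, were measured in part in macrophage-like cells, and none of the 55 measured was apart, beside 1.83% of all genes there. These were 7 of 11 scavenger and uptake receptors, 6 of 10 fatty acid binding and activating genes, 6 of 15 droplet and lipolysis genes, 12 of 14 lysosomal genes, 5 of 10 efflux and apolipoprotein genes, 1 of 6 lipase partners, 10 of 10 Trem2 companions, 5 of 11 nuclear receptors and sterol regulators and 3 of 12 synthesis genes. The leading genes of the lists were the scavenger receptor Cd68 at 812 and 752 CPM, the acyl-CoA carrier Dbi at 355 and 373, the lipase inhibitor Hilpda at 869 and 631, and the saposin precursor Psap at 3998 and 3665. Apoc2, the cofactor of lipoprotein lipase, was at 269 and 311, the lipase maturation gene Sel1l at 43.2 and 39.7, Spp1 at 7143 and 6993, the ubiquitin ligase of lipoprotein receptors Mylip at 79.0 and 89.6, and the desaturase Scd2 at 175 and 133.

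In fibroblast-like cells 5 of the 52 measured, or 9.62%, were apart, beside 4.23% of all genes there. The ganglioside activator Gm2a, at 15.8 and 29.6 CPM, and the lysosome regulator Mitf, at 20.5 and 32.1, were higher in the aged pool among 11 measured lysosomal genes. The phospholipid transfer protein Pltp, at 16.003 and 29.4 CPM, and the apolipoprotein Apod, at 174 and 294, were higher among 3 measured efflux genes. Spp1 was 1.54-fold lower in the aged pool, at 24073 and 15677 CPM, the only one apart of 8 measured Trem2 companions. None was apart among 5 uptake receptors, 4 binding genes, 6 droplet genes, 4 lipase partners, 6 nuclear receptors and 5 synthesis genes. Their leading genes were the receptor Lrp1 at 534 and 555 CPM, Dbi at 306 and 294, Hilpda at 258 and 177, the lysosomal cholesterol carrier Npc2 at 712 and 752, the lipase inhibitor Angptl4 at 233 and 234, the sterol sensor partner Scap at 56.5 and 42.2, and Scd2 at 156 and 144. Hilpda, like Plin2, was lower in the aged pool, at 0.684 times the young level and so short of the limit.

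The pattern of each gene over the 20 mouse clusters of at least 50 cells was compared with all others by Pearson's r of log2(CPM + 10), with both pools summed. These points share libraries and, within a lineage, depth, so r is a description. Apoe ran closest to C3ar1 (0.9804), Tbxas1 (0.977) and Aif1 (0.969), and Trem2 to Ccl12 (0.986), C1qb (0.981) and C1qa (0.981). Gpnmb ran closest to Zmynd15 (0.911), Npl (0.899) and Rapsn (0.898), and Fabp5 to Hpgds (0.816), Htr2b (0.811) and Npl (0.790). Lpl was nearest to Ank2 (0.951), Steap3 (0.937) and Ttyh2 (0.919), and Fabp4 to the endothelial gene Eng (0.935), Adarb1 (0.935) and Gng11 (0.934). Cd36 was nearest to Sh3tc1 (0.907), the VEGF receptor gene Kdr (0.828) and Tbc1d22a (0.818). Plin2 followed the haem oxygenase gene Hmox1 (0.937), Ftl1 (0.916) and Pgam1 (0.905), Abca1 followed Tcn2 (0.872), Sat1 (0.859) and Gab2 (0.845), and Lipa followed Pikfyve (0.896), Rab11fip5 (0.895) and Selenop (0.888).

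Among the 10 genes themselves the closest pair over these clusters was Apoe and Trem2 (0.966), followed by Apoe and Gpnmb (0.803). Fabp4 and Plin2 had the lowest r, at -0.34. Over 13 myeloid sub-clusters Apoe and Trem2 were again closest (0.924), with Plin2 and Abca1 next (0.911) and then Gpnmb and Fabp5 (0.881). Single macrophage-like cells seldom held the whole set: after thinning, the median cell had a UMI of 3 of the 10 genes in both pools, and 29.8% and 23.0% had 5 or more.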

How the data were processed

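The deposited matrices hold the authors' UMI counts per gene and barcode, made with Cell Ranger 6.0.0 on GRCh38 and mm10, per the submitters' processing notes. They were used as deposited. Mouse barcodes with at least 500 UMIs, 300 genes and at most 20% mitochondrial UMIs were kept. A doublet score over 0.25 (scrublet in scanpy 1.11.5, expected rate 0.1) removed 1045 and 1166 cells. Cells of both pools were clustered together (2000 variable genes without the lipid genes, 30 components, 15 neighbours, Leiden resolution 1, leidenalg 0.10.2). A cluster was named when it had at least 3 markers of a class, more than of any other, and its leading genes did not go against the name.

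The 10 genes, the role lists and the naming rule were chosen with earlier results of these data known. Named genes were the 10, the top gene of each role list in macrophage-like and fibroblast-like cells, any list gene apart there, and the 3 genes most like each of the 10. UMIs were summed by class and pool, with exact Poisson intervals for levels and exact binomial (Clopper-Pearson) intervals for shares and ratios. The cells highest in Gpnmb, and Spp1, C1qa, Col1a1 and Gpihbp1 beside the 10 genes, were chosen after their values were seen. The rule for genes apart was tried on simulated counts that held counting error alone. How it fares with variation between cells or animals was therefore not tested. Surface protein counts were not used, and hashing counts only for the levels by tag among the other observations. Sequences were not analysed here.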

Additional observations from a re-analysis of the deposited data

How the results depend on the processing

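No paired analysis was possible because each group had 1 gene expression library. Of 120 recomputed counts, 100 stayed within 1.5 times the reported count and 20 did not. With 100 CPM as the minimum the genes apart were 26 in macrophage-like, 93 in fibroblast-like, 51 in endothelial-like and 6 in neutrophil-like cells; with only 10 UMIs required they were 1549, 2494, 1967 and 2128. With every cell weighted equally they were 204 in macrophage-like and 148 in fibroblast-like cells (77 higher and 71 lower, against 184 and 65), and with a mouse share of at least 0.98 they were 59 in neutrophil-like cells. TMM factors changed the split of higher and lower genes from 39 and 59 to 28 and 67 in macrophage-like cells and from 18 and 3 to 12 and 6 in neutrophil-like cells.

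Of the 10 genes, macrophage-like cells had 0 apart at Leiden resolution 2 and 0 at 100 CPM. Fibroblast-like cells had 5 with only 10 UMIs required (Apoe, Gpnmb, Lpl, Fabp4 and Cd36) and 1 without doublet removal (Lpl). Endothelial-like cells had 1 at 100 CPM, 1 without the top cell of each gene and 0 without the 5 top cells, where 135 genes were apart. Neutrophil-like cells had 1 with only 10 UMIs required (Lpl).

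Of 29 aged over young ratios, 15 changed sign under at least 1 alternative: 12 of the 22 that were not apart, where the sign has little meaning, and 3 of the 7 that were apart. The 3, and the macrophage-like over fibroblast-like levels that changed sign, follow. At resolution 2 the Mmp12- and Arg1-led macrophages lost their name. The aged over young log2 ratio in macrophage-like cells was then -1.74 for Lpl and -2.40 for Cd36, both short of the minimum for a measured gene. At this resolution the log2 level in macrophage-like over fibroblast-like cells was -3.56 for young Fabp4, -0.041 for young Plin2, -0.047 for aged Gpnmb and -1.24 for aged Cd36. That of young Fabp4 was -0.61 with cells weighted equally and -0.38 without the 5 top cells. At the same mix of sub-clusters the fibroblast-like Apoe log2 ratio was -0.22. The cause was not tested, except that these settings move or leave out cells. Leaving out shared barcodes, sub-clusters led by another cell type's genes or 5 top cells, and the same mix, were chosen after seeing the data. Depth limits Lpl, Fabp4 and Cd36 in macrophage-like cells, which rest on 120 to 310 UMIs a pool.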

Other observations

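Hashing antibodies were directed at human cells, and their counts in mouse cells split the classes unevenly. Macrophage-like cells with no single tag (283 young, 250 aged) had Lpl at 27.1 and 75.1 CPM, and those with the most common tag of their pool (73 and 177 cells) at 7.85 and 8.47. In fibroblast-like cells Lpl was at 140.1 and 273 CPM without a single tag and at 158 and 365 with the most common one. What a tag on a mouse cell stands for is not given in the sources used here.

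The unnamed cluster 18, led by Acp5, Ctsk and Atp6v0d2, had Gpnmb at 119 CPM in the young and 4.24 CPM in the aged pool, with 94.3% of the young UMIs in 1 cell. Its Apoe was at 3868 and 7260 CPM, spread over more cells, with 9.23% and 10.2% in the top cell. Apoe in NK cell-like cells read 169 and 68.2 CPM, with 55.2% of the young UMIs in 1 cell.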
